A study of Danio rerio with 5 samples.

Results

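The expression of 10 immediate-early transcription factor genes was followed across sorted zebrafish epidermal cells: the Fos family genes fosaa, fosab, fosb, fosl1a and fosl2, the Jun family genes jun, junba and junbb, and atf3 and egr1. They were picked by gene symbol from the 30849 symbols of the count table, each represented by its transcript row of highest mean count, and all 10 were found and passed the filter on low counts. RNA was sequenced from 5 libraries of cells sorted by fluorescence. Adult basal cells (1 library) came from the fin of Tg(itgb4:mcherry) fish, and embryonic basal precursors (2 libraries) from the same line at 1 day post fertilization. Embryonic periderm cells (2 libraries), also at 1 day, carried krt4:creERt2 together with the switch reporter Olactb:loxP-dsRed2-loxP-egfp and the marker cryaa:egfp. All fish were of a Tubingen-derived background. The basal label came from the itgb4 promoter, and the periderm fish carried the switch reporter and cryaa:egfp beside krt4:creERt2. A population therefore holds whatever cells carry the label, not only cells with the named promoter active. Age and body site changed together between the adult and embryonic samples. Whether the replicates were separate clutches, and how many animals each pooled, is not stated, so the p-values measure only a spread among samples that may be technical in origin.

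Fos and Jun proteins carry a basic leucine zipper and pair with each other to form AP-1, a dimer that binds DNA and switches on genes of growth, migration and repair. Fos proteins need a Jun partner, while Jun proteins can also pair among themselves. Atf3 is a related zipper protein induced by stress, and Egr1 is a zinc finger factor switched on by the same MAP kinase signals. Their transcripts appear within minutes of a wound, a growth factor or the enzymes and shear of tissue dissociation, and AP-1 is also a standing regulator of keratinocytes.

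Read depth limited the rarest of these genes. Counts per library, with 1 transcript row kept per gene, summed to between 3521994 in the adult library and 7505594 in periderm replicate 2. Levels are given as CPM, counts scaled to library size with TMM factors that correct for library composition, and 3 counts corresponded to 1.38 CPM in the adult library and at most 0.567 CPM in an embryonic one. The gene whose promoter drove the basal reporter, itgb4, measured 3915 CPM in adult basal cells, 488 and 498 CPM in embryonic basal replicates 1 and 2, and 9.67 and 41.5 CPM in periderm replicates 1 and 2. krt4, whose promoter marked periderm, was at 197 CPM in adult basal cells, at 23978 and 18238 CPM in embryonic basal cells and at 60629 and 31109 CPM in periderm, so it was not restricted to the periderm sort. The 10 muscle markers summed to 5.05 CPM in adult basal cells, to 16523 and 31956 CPM in embryonic basal cells and to 15821 and 37281 CPM in periderm, so the embryonic sorts held muscle RNA. In bulk samples, fewer cells of a type and less RNA per cell cannot be told apart.

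The 10 genes took a different share of each library. They made up 1.93% of gene counts in adult basal cells, 1.03% and 0.506% in the 2 embryonic basal libraries, and 0.341% and 0.318% in the 2 periderm libraries. In the adult library 9 of the 10 genes stood above all 4 embryonic libraries, the exception being atf3, where 29.7% of all genes did so. Among the embryonic libraries, basal replicate 1 was the highest for 8 of the 10 genes. The share of all genes for which it was the highest was not counted.

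**Figure D1:**
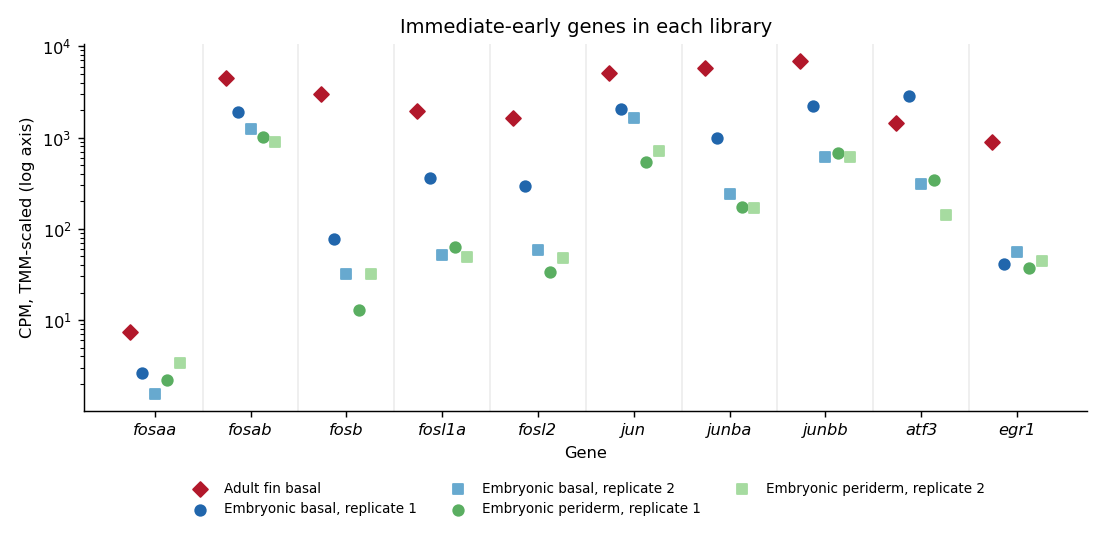
TMM-scaled CPM (log axis) of the 10 genes, 1 point per library. The adult point is the highest for every gene except atf3, which peaks at 2861 CPM in embryonic basal replicate 1, and fosb spans 2966 CPM in the adult library to 12.8 CPM in periderm replicate 1.

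Among the Fos genes, fosab, a zebrafish counterpart of mammalian Fos, was abundant in every library. It measured 4488 CPM in adult basal cells, 1896 and 1242 CPM in embryonic basal cells, and 1002 and 882 CPM in periderm. The 3 groups did not overlap. For embryonic basal cells over periderm, however, the edgeR adjusted p of 0.400 lay above the threshold of 0.05 (log2 fold change 0.72, SE 0.39). Adult basal cells stood above periderm (log2 fold change 2.25, SE 0.56, adjusted p = 0.0201), and the log2 fold change of 1.52 over embryonic basal cells did not pass (SE 0.56, adjusted p = 0.0841).

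fosb, whose protein is a Fos partner for Jun with a strong activation domain, showed the widest range of the Fos genes. It was at 2966 CPM in adult basal cells, at 77.8 and 32.0 CPM in embryonic basal cells, and at 12.8 and 32.3 CPM in periderm. The adult library lay far above all embryonic ones, and the embryonic groups overlapped. fosb rose 54.0-fold over embryonic basal cells (log2 fold change 5.76, SE 0.75, adjusted p = 0.00243) and 130-fold over periderm (log2 fold change 7.03, SE 0.78, adjusted p = 0.00132). The embryonic difference was 1.25 on the log2 scale (SE 0.59, adjusted p = 0.325).

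fosl1a encodes a Fos-related antigen that lacks the activation domain of Fos and is linked in mammals to migrating keratinocytes. It measured 1963 CPM in adult basal cells, 357 and 51.4 CPM in embryonic basal cells, and 63.7 and 48.8 CPM in periderm. Basal replicate 2 fell inside the periderm range, so only 1 of the embryonic basal libraries stood apart. Adult levels were 9.61-fold above embryonic basal cells (adjusted p = 0.0338) and 34.9-fold above periderm (adjusted p = 0.00692).

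fosl2, the other Fos-related gene, repeated this shape at 1625 CPM in adult basal cells, 295 and 58.9 CPM in embryonic basal cells, and 33.9 and 48.3 CPM in periderm. Here both basal libraries lay above both periderm libraries, though basal replicate 2 did so narrowly. fosl2 was 9.20-fold higher in adult than in embryonic basal cells (log2 fold change 3.20, SE 0.79, adjusted p = 0.0249) and 39.4-fold higher than in periderm (log2 fold change 5.30, SE 0.85, adjusted p = 0.00414). The embryonic difference of 2.08 on the log2 scale did not pass (SE 0.69, adjusted p = 0.154).

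fosaa, the duplicate of fosab, was close to the detection limit. Its raw counts were 16 in the adult library, 14 and 9 in embryonic basal cells, and 12 and 30 in periderm, or 7.34, 2.64 and 1.54, and 2.19 and 3.38 CPM. The embryonic groups overlapped. None of its 3 differences passed the test, with log2 fold changes of 1.81 over embryonic basal cells and 1.36 over periderm in the adult library (adjusted p = 0.199 and 0.277) and -0.47 between the embryonic groups (adjusted p = 0.851).

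Among the Jun genes, jun, the founding AP-1 subunit, separated the 3 groups. It measured 5069.7 CPM in adult basal cells, 2075 and 1649 CPM in embryonic basal cells, and 541 and 705 CPM in periderm. Each group kept its own range without overlap. The difference between embryonic basal cells and periderm had a log2 fold change of 1.56 (SE 0.39), a 2.94-fold higher level that missed the threshold (adjusted p = 0.0754). Adult cells were 8.14-fold above periderm (adjusted p = 0.00682) and had a log2 fold change of 1.45 over embryonic basal cells (SE 0.55, adjusted p = 0.0935).

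The pair junba and junbb encode JunB proteins, which in mammals often restrain Jun and hold back epidermal growth and inflammation. junba was at 5780.1 CPM in adult basal cells, 976 and 238 CPM in embryonic basal cells, and 173 and 168 CPM in periderm. junbb was at 6953 CPM, 2209 and 614 CPM, and 669 and 618 CPM in the same order. For junba the 3 groups did not overlap, while for junbb basal replicate 2 lay just below both periderm libraries. junba rose 9.53-fold in adult over embryonic basal cells (log2 fold change 3.25, SE 0.77, adjusted p = 0.0211) and 33.9-fold over periderm (adjusted p = 0.00413). junbb rose 10.8-fold over periderm (log2 fold change 3.43, SE 0.76, adjusted p = 0.0137), and its log2 fold change of 2.30 over embryonic basal cells missed the threshold (SE 0.75, adjusted p = 0.0588). Between the embryonic groups the log2 fold changes were 1.81 for junba and 1.11 for junbb (adjusted p = 0.160 and 0.376).

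atf3 followed another pattern. It measured 1425 CPM in adult basal cells, 2861 and 313 CPM in embryonic basal cells, and 341 and 142 CPM in periderm. Embryonic basal replicate 1 was above every other library, including the adult one, and basal replicate 2 lay inside the periderm range. atf3 had the largest embryonic log2 fold change of the 10 genes, at 2.70, with the largest standard error, at 0.94 (adjusted p = 0.169). Adult over embryonic basal cells the log2 fold change was -0.16 (SE 1.09, adjusted p = 0.932), and its log2 fold change over periderm was 2.56 (SE 1.04, adjusted p = 0.0999).

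egr1 was even among the embryonic libraries. It measured 899 CPM in adult basal cells, 41.4 and 56.0 CPM in embryonic basal cells, and 37.4 and 44.0 CPM in periderm, and the embryonic groups overlapped within a 1.5-fold range. The adult library was 18.4-fold above embryonic basal cells (SE 0.46 on the log2 scale, adjusted p = 0.00151) and 22.0-fold above periderm (log2 fold change 4.46, SE 0.46, adjusted p = 0.00108). The table holds egr1 at 2 places under 1 accession, and the second place had 1996 counts in the adult library, 166 and 107 in embryonic basal cells, and 78 and 365 in periderm, against 1958, 219 and 327, and 205 and 390 at the place used. Reads may therefore be split between the copies, and single embryonic values of egr1 are uncertain to that extent.

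At 1 day the embryo holds both layers, and basal precursors were set against periderm. Log2 fold changes were positive for 9 of the 10 genes, with a median of 1.40 against -0.02 over all genes tested, and both basal libraries lay above both periderm libraries for 4 of them (fosab, fosl2, jun and junba), where 22.7% of all genes did so. No gene of the 10 passed edgeR's quasi-likelihood test at an adjusted p of 0.05, which called 3.5% of 15589 genes (0.956% higher and 2.54% lower in basal cells). At an unadjusted p under 0.05 there were 5 (fosl1a, fosl2, jun, junba and atf3), a share that was not counted over all genes. DESeq2 called 4 (fosl2, jun, junba and atf3) higher in basal cells, where it called 3.57% of all genes higher. The size of the difference changed with the basal library left out. Without basal replicate 1 the median of the 10 genes fell to 0.43, against -0.051 over all genes. Without basal replicate 2 it was 1.77, against -0.14 over all genes. The log2 fold change of jun stayed between 1.40 and 1.79 when any 1 embryonic library was left out.

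The adult comparisons have 1 adult library, whose unseen variation was taken to equal that of the embryonic samples. Adult over embryonic basal cells, 5 of the 10 genes rose (fosb, fosl1a, fosl2, junba and egr1) and none fell, where 11.6% of 18147 genes rose and 11.4% fell. Over periderm, 8 of the 10 rose (those 5 with fosab, jun and junbb) and none fell, where 14.2% of genes rose and 14.4% fell. The comparisons share the adult library and are not independent, and 9.7% of all genes rose in both. By CPM alone the adult library lay above both embryonic basal libraries for 9 of the 10 genes (35.3% of all genes) and above both periderm libraries for 10 (35.2% of all genes). The medians were 2.75 and 3.95, while TMM scaling placed the median of all genes at -0.59 and -0.72. With total counts in place of TMM the medians of the 10 genes were 2.05 and 3.01 and those of all genes -1.38 and -1.66. That scaling also shifted the calls over all genes, to 1507 higher and 3890 lower against 2110 and 2076 with TMM for adult over embryonic basal cells, and to 1793 and 5134 against 2585 and 2614 over periderm.

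**Figure D2:**
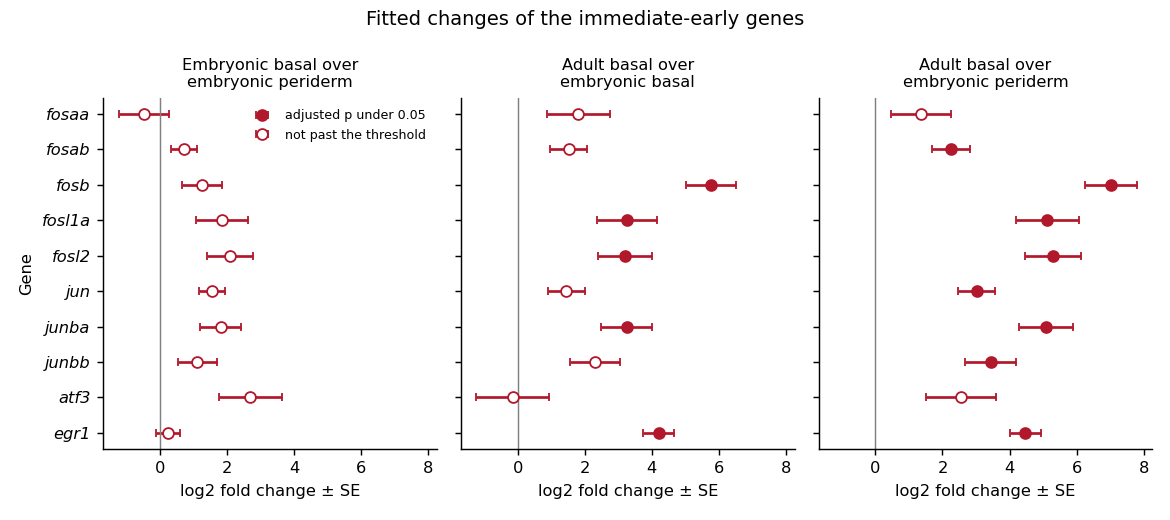
Fitted log2 fold changes (points) with their standard errors (bars) in the 3 comparisons, filled where the adjusted p was under 0.05. No point is filled for embryonic basal cells over periderm, 5 are filled for adult over embryonic basal cells and 8 for adult cells over periderm, with fosb the farthest right at 7.03.

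Some adult calls ended when a periderm library was left out. Only the embryonic basal group then kept replicates, and why the calls ended was not tested. Over embryonic basal cells, leaving out periderm replicate 1 ended the calls of fosl1a and junba (adjusted p = 0.0657 and 0.0604), leaving out periderm replicate 2 did the same (adjusted p = 0.0647 and 0.0584), and the call of fosl1a ended also when its transcript rows were added up (adjusted p = 0.0545). Across 12 alternatives the adjusted p spanned 0.00146 to 0.0657 for fosl1a and 1.47e-04 to 0.0604 for junba. Over periderm, fosab, fosl1a, jun and junbb were lost with either periderm library left out (adjusted p between 0.0501 and 0.155), and fosab with total counts (adjusted p = 0.0615). The calls for fosb, fosl2 and egr1 held in all 12 alternatives of both adult comparisons, and that for junba over periderm did too.

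The embryonic replicates were not alike. Basal replicate 1 exceeded basal replicate 2 more than 2-fold for 6 of the 10 genes, where 14% of all tested genes did so. The ratio was 9.15-fold for atf3, 6.95-fold for fosl1a, 5.0-fold for fosl2, 4.10-fold for junba, 3.60-fold for junbb and 2.43-fold for fosb. It was only 1.53-fold for fosab and 1.26-fold for jun, and egr1 was 1.35-fold higher in replicate 2. In periderm 2 of the 10 genes differed more than 2-fold, atf3 being 2.40-fold higher in replicate 1 and fosb 2.53-fold higher in replicate 2 (12.3% and 14.7% of all genes differed that way).

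**Figure D3:**
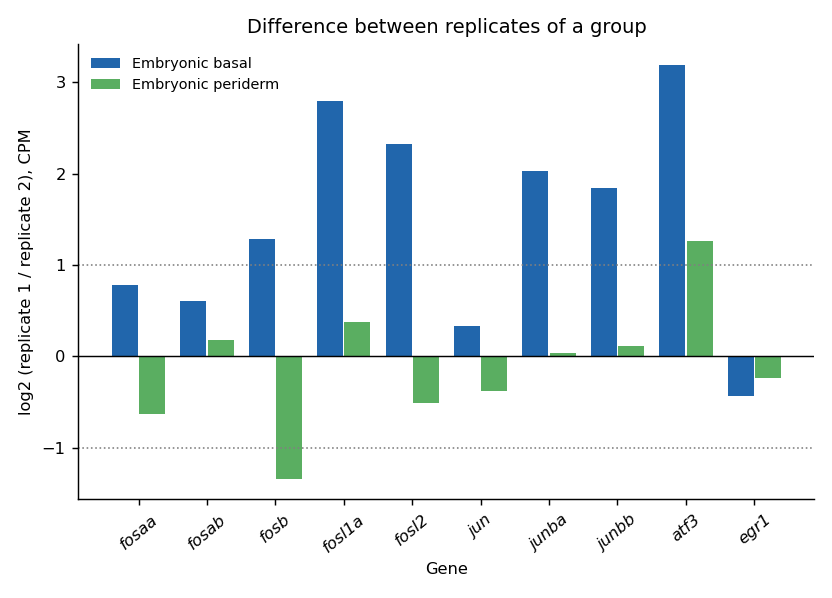
Log2 ratio of replicate 1 to replicate 2 in CPM for each gene, in embryonic basal cells (blue) and periderm (green), with dotted lines at a 2-fold difference. The basal bars of fosb, fosl1a, fosl2, junba, junbb and atf3 pass the upper line, while those of fosaa, fosab, jun and egr1 stay between the lines.

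Heat-shock transcripts, a second response that dissociation can set off, moved with the 10 genes across libraries as a summed share. The 40 heat-shock and co-chaperone genes of a list took 16.9% of gene counts in adult basal cells, 13.3% and 4.36% in embryonic basal cells (replicate 1 first), and 3.85% and 2.12% in periderm. The 5 libraries had the same order for this list as for the 10 immediate-early genes. That order was not particular to heat shock, as the lists of other immediate-early genes and of AP-1 and wound targets, described below, had it too. The most abundant of the list in every library were hsp70.1, hsp70.3 and hsp70l. Single genes did not all keep the order of the sum. hsp70.1 measured 52881 CPM in adult basal cells, 27009 and 6795 CPM in embryonic basal cells, and 8100 and 3467 CPM in periderm. hsp90ab1 stayed between 1512 and 1958 CPM in all 5 libraries. bag3, a co-chaperone, measured 5401 CPM in adult basal cells, 2170.2 and 515 CPM in embryonic basal cells, and 82.1 and 105 CPM in periderm. In the embryonic comparison edgeR called 2 of 37 tested members higher, where 0.956% of all genes rose. With transcript rows summed it called 0, where 0.156% of all genes rose. DESeq2 called 9 of the list higher, where it called 3.57% of all genes higher. The 2 edgeR calls were bag3 and serpinh1b, the collagen chaperone, at 14.1-fold and 17.8-fold (adjusted p = 0.0333 and 0.0443). With either periderm library left out neither call held. Fewer members rose without basal replicate 1, and more without basal replicate 2, and the numbers over all genes moved the same way. In the adult library 6 of 38 rose and 3 fell against embryonic basal cells, and 17 rose and 4 fell against periderm. Of all genes, 11.4% and 14.4% fell in these comparisons. Over embryonic basal cells the 15.8% that rose is near the 11.6% of all genes, and over periderm 44.7% of the list rose against 14.2% of all genes. With either periderm library left out fewer of the list rose in both comparisons. Over all genes the share that rose then changed little over embryonic basal cells and was smaller over periderm. Without basal replicate 1 more of the list rose over embryonic basal cells, while the share of all genes was smaller. Both shares of the list therefore depended on the libraries used. Among those that rose over periderm was hsp90aa1.2, an Hsp90 gene (39.4-fold, adjusted p = 0.0115), and hspb8, a small heat-shock gene, fell against both embryonic groups. It had 1 count in the adult library against 694 and 229 in embryonic basal cells, a ratio of embryonic to adult CPM of 186 (95% counting interval 33.3 to 7331). How far dissociation stress accounts for the levels of Fos, Jun and Atf3 was not tested.

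**Figure D4:**
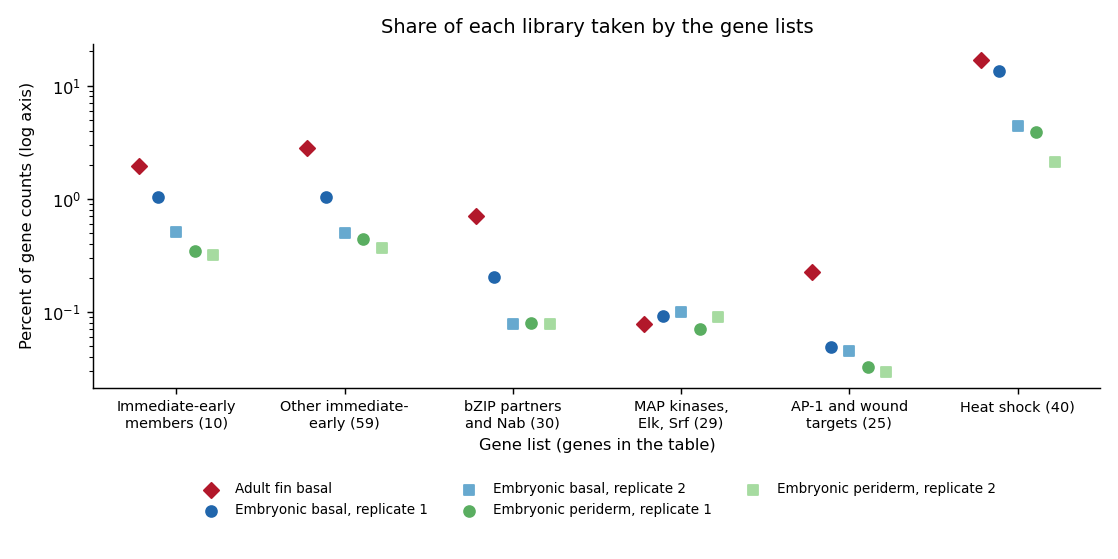
Percent of gene counts (log axis) taken by each gene list, 1 point per library. The immediate-early and heat-shock lists order the libraries alike, from 1.93% and 16.9% in the adult library to 0.318% and 2.12% in periderm replicate 2. The other immediate-early and the AP-1 and wound target lists share this order, whereas the MAP kinase list stays between 0.0698% and 0.0987%.

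The makeup of the Fos and Jun families also differed between libraries. Per length, using deposited RPKM, fosab made up 59.4% of summed Fos family RPKM in adult basal cells, 80.8% and 94.3% in embryonic basal cells, and 92.9% and 92.4% in periderm. fosl1a took 25.2% in adult basal cells, 14.7% and 3.78% in embryonic basal cells, and 5.71% and 4.95% in periderm. fosb took 9.17% in the adult library and at most 0.789% in an embryonic one. Of the Jun family RPKM, junba took 35.3% in adult basal cells, 20.6% and 11% in embryonic basal cells, and 14.0% and 12.8% in periderm. jun took 25.4% in adult basal cells, 36.1% and 62.7% in embryonic basal cells, and 35.9% and 43.9% in periderm. These shares are descriptions of the libraries, with no test.

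**Figure D5:**
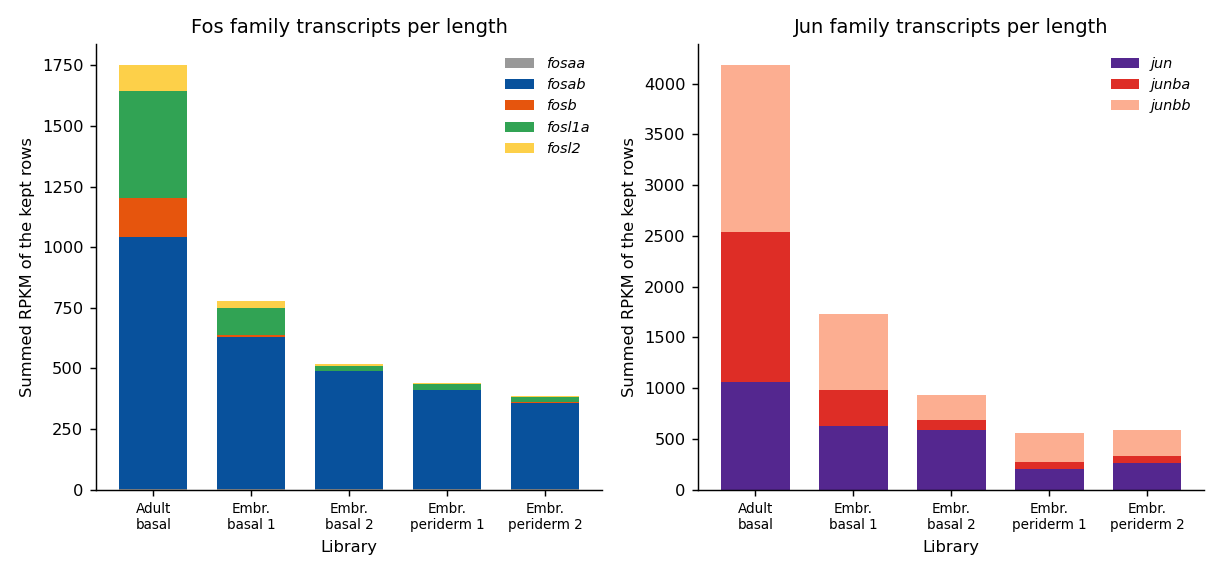
Summed deposited RPKM of the kept transcript rows, stacked by gene, for the Fos family (left) and the Jun family (right) in each library. The Fos total is 1751 RPKM in adult basal cells and at most 779 RPKM in an embryonic library, and the Jun total is 4182 RPKM in adult basal cells and at most 1727 RPKM in an embryonic one.

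Ordered by RPKM, junbb was first in the adult library at 1644, followed by junba at 1475, jun at 1064 and fosab at 1041. In embryonic basal cells jun (623 and 585 RPKM), fosab (629 and 487 RPKM) and junbb (748 and 245 RPKM) overlapped, so no order among them exceeded their spread. In periderm fosab led at 408 and 358 RPKM, above junbb at 278 and 255 RPKM and jun at 199 and 258 RPKM, which overlapped each other. fosaa was last in every library. The level of fosb per length depends on the transcript row: its kept row is 7208 bases long and gave 161 RPKM in the adult library, and a row of 1527 bases gave 308 RPKM there.

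The zipper partners and Egr corepressors were followed as a list. Of 25 tested genes of this list, 12 rose over embryonic basal cells and 13 over periderm, and none fell, where 11.6% and 14.2% of all genes rose. jund, the gene of JunD, measured 212 CPM in adult basal cells, 9.26 and 2.40 CPM in embryonic basal cells, and 2.19 and 5.64 CPM in periderm (36.5-fold over embryonic basal cells, adjusted p = 0.00392). crema, a Creb-related modulator, was 86.6-fold higher than in embryonic basal cells (adjusted p = 0.00397), and cebpa, a differentiation factor, 34-fold (adjusted p = 0.00409). nab1b, an Egr corepressor, was 55.5-fold higher than in periderm (adjusted p = 7.93e-04). cremb had no counts in the embryonic libraries. It was at least 32.3-fold higher than in embryonic basal cells, taking 3 counts in each library as the limit. It counts among the 12 and the 13, but passed the filter through the adult library alone, so it had to differ. In the embryonic comparison none of 23 passed edgeR's test, and 3 had an unadjusted p under 0.05, a share that was not counted over all genes. DESeq2 called 1 higher in basal cells, where it called 3.57% of all genes higher. In edgeR without basal replicate 2 more passed, as did more of all genes. Between the embryonic groups jdp2b, whose protein represses AP-1 sites, was at 305 and 93.0 CPM in basal cells against 81.5 and 53.4 CPM in periderm (edgeR adjusted p = 0.189). cebpb, more abundant, overlapped at 547 and 75.2 CPM in basal cells against 123 and 179 CPM in periderm (edgeR adjusted p = 0.596). The list's median log2 fold changes were 0.94 in the embryonic comparison, 1.87 for adult over embryonic basal cells and 2.74 for adult cells over periderm.

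Of 56 other immediate-early genes tested, 27 rose and 1 fell (ctgfb) in adult over embryonic basal cells, and 36 rose and none fell over periderm, with medians of 2.41 and 2.98, where 11.6% and 14.2% of all genes rose. ctgfb had 0 counts in the adult library and passed the filter through embryonic basal cells alone, so it had to differ. dusp2, a phosphatase that turns off MAP kinases, rose 164-fold over embryonic basal cells (adjusted p = 0.00102), and nr4a3, an orphan nuclear receptor, 103-fold (adjusted p = 0.00527). klf4, a Krüppel-like factor of epidermal barrier formation, was at 408 CPM in adult basal cells, 4.72 and 2.57 CPM in embryonic basal cells, and 2.74 and 7.22 CPM in periderm (112-fold over embryonic basal cells, adjusted p = 0.00109). ptgs2a, the inducible prostaglandin synthase, reached 9293 CPM in adult basal cells, against 1032 and 338 CPM in embryonic basal cells and 188 and 130 CPM in periderm (58.5-fold over periderm, adjusted p = 0.00246). The Egr relatives egr2a, egr2b and egr3 rose in both adult comparisons, as did egr1. The remaining relative egr4 was lower in the adult library, at 12.8 CPM against 52.9 and 29.3 CPM in embryonic basal cells and 61.8 and 32.0 CPM in periderm, and did not pass (adjusted p = 0.119 and 0.0803). Between the embryonic groups 3 of 54 rose in edgeR (ctgfb, ppp1r15a and zfp36l2) and 1 fell (cyr61l2), where 0.956% of all genes rose and 2.54% fell. Among these, ctgfb (53 and 53 counts in basal cells, 5 and 6 in periderm) passed the filter through the basal libraries alone. cyr61l2 (1 and 1 counts in basal cells, 15 and 42 in periderm) passed it through periderm alone, so both had to differ. With transcript rows summed edgeR called 0 higher and 0 lower. DESeq2 called 9 higher and 0 lower, where it called 3.57% of all genes higher. ppp1r15a, which restores translation after stress, was 5.52-fold higher in embryonic basal cells (adjusted p = 0.0393) and zfp36l2, an RNA decay factor, 4.65-fold (adjusted p = 0.0386). No rise in this list held without periderm replicate 1, periderm replicate 2 or basal replicate 1. Without basal replicate 2 more of its genes rose, as did more of all genes.

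The upstream list held the MAP kinases, their activators, the Elk factors and Srf with its coactivators, which carry signals to immediate-early promoters. None of 28 passed between the embryonic groups in edgeR, with a median of 0.08. At an unadjusted p under 0.05 there were 4, a share that was not counted over all genes. DESeq2 called 1 higher in basal cells, where it called 3.57% of all genes higher. Against embryonic basal cells 3 of 29 rose in the adult library (elk1, braf and mapk9), and against periderm 5 did (those 3 with map2k1 and mkl2b). These shares of 10.3% and 17.2% lie near the 11.6% and 14.2% of all genes that rose. elk1, an Ets factor that partners Srf, was 8.04-fold higher than in embryonic basal cells (adjusted p = 0.0364). With total counts in place of TMM the numbers that rose were 0 and 1, where 8.3% and 9.88% of all genes rose.

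Of the AP-1 and wound target list, 12 of 22 tested genes rose and none fell in each adult comparison, where 11.6% of all genes rose over embryonic basal cells and 14.2% over periderm. Among the 12, cd44a, plaub and cxcl8b.1 had at most 5 counts in any embryonic library and passed the filter through the adult library alone, so they had to differ. Over embryonic basal cells the 12 include plaua, which also passed the filter through the adult library alone and so had to differ there. It had 11 counts in the adult library, 0 in both embryonic basal libraries, and 4 and 13 in periderm. cd44a, a hyaluronan receptor, measured 1202 CPM in adult basal cells and had no counts in the embryonic libraries, at least 2224-fold higher than in embryonic basal cells. The neutrophil attractant cxcl8a was at 654 CPM in adult basal cells, 7.18 and 1.03 CPM in embryonic basal cells, and 0.547 and 2.71 CPM in periderm (161-fold over embryonic basal cells, adjusted p = 0.00239). Between the embryonic groups DESeq2 called 3 of the list higher in basal cells, where it called 3.57% of all genes higher. edgeR called 0 with transcript rows summed. With 1 row kept per gene, mmp14a, a membrane matrix protease, was the 1 of 15 tested that rose in edgeR (3.33-fold, adjusted p = 0.0451). Of all genes, 0.956% rose. The call of mmp14a did not hold when basal replicate 1 or either periderm library was left out. With the stricter filter of 5 CPM in 2 libraries, 7 rose in each adult comparison, where 12% and 15.1% of all genes rose. That filter takes out genes that reach 5 CPM in the adult library alone, cd44a, plaub and cxcl8b.1 among them, so fewer of the list were tested.

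Markers of other cell types differed between the groups beside these genes. The 10 leukocyte markers summed to 88.1 CPM in adult basal cells, 3.02 and 11 CPM in embryonic basal cells, and 142 and 222 CPM in periderm (8 of 10 were detected in the adult library, with lyz and lect2l at 0 counts). Of these 10 markers 4 rose in adult over embryonic basal cells (coro1a, lcp1, mpeg1.1 and ptprc), where 11.6% of all genes rose. The mpeg1.1 call rests on 13 counts in the adult library against 0 in both embryonic basal libraries. Against periderm 1 fell in adult cells (mfap4) and 0 rose, where 14.4% of all genes fell and 14.2% rose. ptprc, the pan-leukocyte marker CD45, was at 20.2 CPM in adult basal cells, at 0 in both embryonic basal libraries and at 3.65 and 4.51 CPM in periderm. Mesenchyme markers summed to 3072 CPM in adult basal cells, of which col1a2 made up 2389 CPM. Their sums were 8301 and 7253 CPM in embryonic basal cells, and 1818 and 2890 CPM in periderm. Against periderm 3 of the 10 fell in adult cells (dcn, lum and pdgfra) and 0 rose, where 14.4% of all genes fell and 14.2% rose. Against embryonic basal cells 6 fell and 0 rose, where 11.4% of all genes fell and 11.6% rose. Pigment markers summed to 4.59, then 51.4 and 140, then 1309 and 944 CPM, neural markers to 15.6, then 290 and 403, then 1586 and 943 CPM, and blood and vessel markers to 0.459, then 66.7 and 180, then 820 and 1132 CPM in the same library order. Ionocyte markers summed to 14342 CPM in the adult library, of which krt91 made up 14157 CPM, and to at most 873 CPM in an embryonic one. Of 7 tested, 2 rose in adult over embryonic basal cells (ca2 and krt91) and 0 fell, where 11.6% of all genes rose. Against periderm 1 rose (krt91) and 2 fell (atp1b1b and atp6v1aa), where 14.2% of all genes rose and 14.4% fell. Log2 fold changes were negative for 5 of the 7 in each adult comparison, with medians of all genes at -0.59 and -0.72. Periderm markers summed to 32563 CPM in adult basal cells, of which krt5 made up 31007 CPM. Their sums were 25359 and 18801 CPM in embryonic basal cells and 77040 and 41069 CPM in periderm. Against periderm 8 of the 10 fell in adult cells and 1 rose (krt5), where 14.4% of all genes fell and 14.2% rose. Against embryonic basal cells 5 rose and 1 fell (krt4), where 11.6% of all genes rose and 11.4% fell. The part of such cells in the levels of the 10 genes was not tested.

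The mean profile of the 10 genes over the 5 libraries was matched against 5540 other named genes of at least 20 CPM. The likeness measure was the root mean square difference of centred log2 CPM. The nearest was errfi1a, an inhibitor of the EGF receptor, at 0.081 log2 units, with 245 CPM in adult basal cells, 48.7 and 16.6 CPM in embryonic basal cells, and 14.0 and 13.9 CPM in periderm. It was followed by brd2a, a bromodomain chromatin reader (0.147), pla2g15, a lysosomal phospholipase (0.168), ddit3, a stress-induced zipper factor (0.177), stip1, an Hsp70 to Hsp90 adaptor (0.202) and bcl2l1, a survival factor (0.206). Among the 10 genes themselves, junbb was closest to the mean profile at 0.247 and fosb farthest at 1.29. junba and fosl2 were each other's nearest at 0.219, and fosab and jun at 0.460, while atf3 and fosb differed most, at 2.23. These distances describe 5 libraries that share their groups and depth, with no test.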

How the data were processed

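RNA was sequenced from 5 libraries, placed in groups by title. Sorted cells went into lysis buffer, with RNeasy Plus Micro RNA purification and an MGIEasy library kit, per the labels' protocols. The deposited counts are whole numbers for each transcript row. The submitters' processing notes name featureCounts 2.0.3, HISAT2 2.2.1 and GRCz11. No source used here gives strand use or how multiply aligned reads were treated, so overlapping antisense reads cannot be told apart. RPKM values, scaled by the authors for row length and depth as the file headers name them, served for levels between genes, and deposited TPM values were not used.

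The row with the highest mean count represented each symbol. Tests used edgeR 4.0.16 in R 4.3.3 (filterByExpr, TMM, estimateDisp, glmQLFit without its older mode, glmQLFTest, Benjamini-Hochberg, threshold 0.05), on the 4 embryonic libraries for the embryonic comparison and on all 5 for the adult ones. SE is the absolute log2 fold change over the square root of F. The code was tested on simulated counts. DESeq2 1.42.0 and the settings of the closing section were alternatives. CPM are TMM-scaled (factors 0.620 adult, 0.960 to 1.19 embryonic). Floors and 95% Poisson intervals cover counting error only.

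Named genes were all 10 members and, from each list, up to 4 called genes per direction by size of change. The called genes had at least 10 CPM, with fewer named where text would repeat. Genes in counts of 5 or fewer, plaua, hsp70.1, hsp70.3, hsp70l and hsp90ab1 were named after their values were seen. Members, lists and rules were chosen with earlier results of these data known. Names absent from the table were matched through RefSeq accessions.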

Additional observations from a re-analysis of the deposited data

How the results depend on the processing

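Between the embryonic groups, the number of the 10 genes called was 0 in all settings except DESeq2 and the fit without basal replicate 2. DESeq2 called 4, where it called 3.57% of all genes higher. Without basal replicate 2 some of the 10 were called higher, and more of all genes were too. The number of all genes called was 545, against 1396 with DESeq2, 208 with transcript rows summed, 349 with edgeR's older quasi-likelihood fit (an alternative added after the data were seen, as was the sum over places) and 73 to 1009 without 1 library. For adult over embryonic basal cells, 8 of the 10 genes were called with DESeq2 and 3 to 6 without 1 library, against 5. For adult cells over periderm, 4 to 9 were called without 1 library, against 8. Without basal replicate 1, fosl1a and junbb reversed between the embryonic groups, to log2 fold changes of -0.12 and -0.062, and atf3 reversed for adult over embryonic basal cells, to 2.15. With 1 library left out in turn these values ranged from -0.12 to 2.66 for fosl1a, -0.062 to 1.77 for junbb and -1.01 to 2.15 for atf3. atf3 also reversed there with RLE scaling (0.069), DESeq2 (0.069) and the filter of 5 CPM in 2 libraries (0.079), values well inside its standard error, and the cause was not tested. Adding a replicate block for the numbers shared by the embryonic groups gave 584 called genes and 0 of the 10. The labels tie no clutch or day to those numbers, and the differences between replicates 1 and 2 correlated at 0.22 across genes between the groups. Depth limits fosaa most, with 9 to 30 counts per library.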
